A study of Mus musculus with 20 samples.

Results

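Procr, Ly6a, Esam, Kit, Cd34, Eng and Cd9 encode surface proteins by which haematopoietic stem and progenitor cells are recognised, and these 7 genes of the 55573 counted were read by name in all 20 RNA-seq libraries of the study. The libraries came from bone marrow of C57BL/6 mice of 7 to 9 weeks and fall into 4 groups of 5, namely HSC and MPP with the leptin receptor on their surface (Lepr+) and HSC and MPP without it (Lepr-). HSC (haematopoietic stem cells) were sorted as CD150+CD48- cells and MPP (multipotent progenitors) as CD150-CD48- cells, and each was divided by an antibody against the leptin receptor, so Lepr+ names receptor protein on the surface and no transgene. All 4 groups passed the same gate beforehand, which took cells without lineage antigens that carried Sca-1 and c-Kit (LSK cells). Each sample held 1000 to 8000 cells pooled from 2 mice, and the labels name no mutation or treatment. The question was how stem cells and progenitors with the receptor differ from those without it.

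Sca-1, the product of Ly6a, and c-Kit, the product of Kit, define the LSK gate itself, so every cell sorted had been chosen for both proteins. Within LSK cells of adult mice the endothelial protein C receptor (EPCR, from Procr) and ESAM mark the cells with most long-term repopulating activity, whereas CD34 is low on long-term stem cells and comes up as they pass to progenitors. Endoglin, from Eng, is a co-receptor for ligands of the TGF-beta family, and CD9 is a tetraspanin of stem cells, megakaryocytes and platelets. EPCR, Sca-1, ESAM, CD34 and endoglin are also carried by endothelial cells.

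Libraries held 9532993 to 31589794 read pairs in genes, with 18174638 to 31589794 in the 12 libraries of replicates 1 to 3 and 9532993 to 15052009 in the 8 of replicates 4 and 5. Levels are given as CPM, counts per 1000000 counts of the library, after scaling by edgeR's TMM factors. Lepr+ MPP replicates 4 and 5 and Lepr+ HSC replicate 5 resembled their own groups least, with mean correlations of 0.815, 0.858 and 0.837. Libraries of 1 replicate number carried the same date in their deposited names, a different one for each number, and a fit with that number as a block is given beside the main fit where it changes a call. Lepr RNA was at 0.0759 to 9.36 CPM in Lepr+ HSC and at 0 to 0.165 in Lepr- HSC, and at 0.261 to 38.8 CPM in Lepr+ MPP and 0 to 0.767 in Lepr- MPP. Slamf1, the gene of CD150, averaged 41.3 ± 17.7 CPM in Lepr+ HSC and 46.6 ± 13.4 in Lepr- HSC, and 5.03 ± 3.01 in Lepr+ MPP and 5.12 ± 3.83 in Lepr- MPP (SD, n = 5 each). In such bulk samples fewer cells with a transcript and less of it per cell cannot be told apart.

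The promoters of Procr, Cd34 and Cd9 are printed because these genes carry the differences described below, Procr between Lepr+ and Lepr- HSC, and Cd34 and Cd9 between HSC and MPP. The sequences are RefSeq's for GRCm38.p6, run 5′ to 3′ on the gene's strand from 250 bases before the start to 50 after it, and capitals mark each CG dinucleotide. They stand at chr2:155750967-155751266 on the plus strand, chr1:194938571-194938870 on the plus strand and chr6:125494711-125495010 on the minus strand.
Procr: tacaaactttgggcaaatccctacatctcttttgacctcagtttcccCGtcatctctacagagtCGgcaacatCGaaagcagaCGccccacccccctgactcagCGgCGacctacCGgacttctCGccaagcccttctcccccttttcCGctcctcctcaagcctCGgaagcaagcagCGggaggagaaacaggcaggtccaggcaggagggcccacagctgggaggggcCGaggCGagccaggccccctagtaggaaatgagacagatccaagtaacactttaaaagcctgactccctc
Cd34: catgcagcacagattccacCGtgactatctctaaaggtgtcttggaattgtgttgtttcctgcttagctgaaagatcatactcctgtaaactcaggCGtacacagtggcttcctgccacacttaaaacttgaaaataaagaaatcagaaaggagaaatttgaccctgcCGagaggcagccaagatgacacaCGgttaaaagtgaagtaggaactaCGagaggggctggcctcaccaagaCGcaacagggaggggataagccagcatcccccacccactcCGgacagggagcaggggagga
Cd9: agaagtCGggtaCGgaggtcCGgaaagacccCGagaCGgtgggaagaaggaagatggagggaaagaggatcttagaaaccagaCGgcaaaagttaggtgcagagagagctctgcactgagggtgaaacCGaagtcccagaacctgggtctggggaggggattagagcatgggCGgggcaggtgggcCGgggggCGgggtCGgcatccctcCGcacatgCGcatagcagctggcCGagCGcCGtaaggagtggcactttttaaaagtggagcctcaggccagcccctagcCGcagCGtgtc
Cd34, the member of the 7 with the steepest difference between HSC and MPP, had 7 CG and 50% G and C, close to the medians of 7 CG and 52.7% over 32851 RefSeq promoters. Procr had 13 CG and 58.3% G and C, and Cd9 had 18 CG and 61.3%. Of the other members, Kit had 2 listed starts with 20 and 21 CG, and Eng had 6 CG. Ly6a and Esam are named without a sequence. Short motifs of factors active in blood cells were sought on both strands, and none was met in the 6 windows of the 5 members with an entry. The STAT core TTCNNNGAA was met in 8.30% of all the promoters. The letters searched for GATA factors were TGATAA and, as the other variant, AGATAA, met in 18.6% of promoters. For RUNX factors they were TGTGGT and, as the other variant, TGCGGT, met in 22.4%. For ETS factors they were ACCGGAA and, as the other variant, ACAGGAA, met in 12%. The start motif TATAAA was met in 13.6%. Matches of different motifs can overlap, and each motif was counted on its own.

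All 7 genes passed the filter on low counts, with 289 to 40652 read pairs per library for the lowest and highest values. Of the 7, 1 was called between Lepr+ and Lepr- HSC at an adjusted p under 0.05, against a background of 0.103% of 16509 genes tested, and 0 were called between Lepr+ and Lepr- MPP, where the background was 0.2%. Between HSC and MPP, 1 was called among Lepr+ cells with a background of 0.466%, and 3 among Lepr- cells with a background of 2.73%. These comparisons share libraries: each group enters a Lepr comparison and a comparison of HSC with MPP. The members' median log2 difference was 0.31 in HSC and 0.38 in MPP for Lepr+ over Lepr-, and 0.03 among Lepr+ and -0.58 among Lepr- cells for HSC over MPP. Over all genes tested the medians lay between -0.02 and 0.01.

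**Figure D1:**
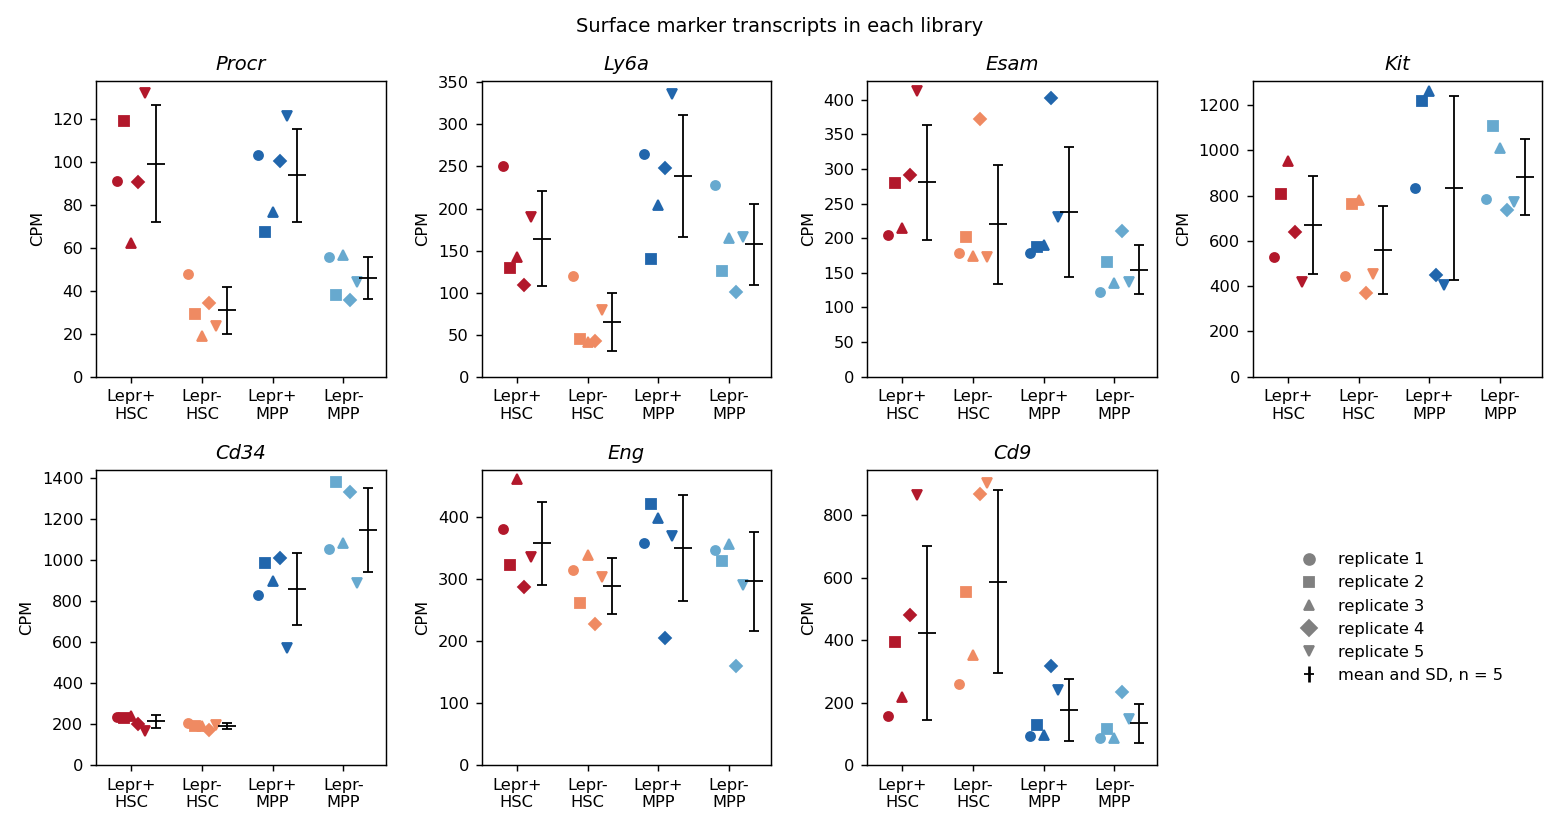
CPM of each of the 7 genes (vertical axis, linear) in each library, by group (horizontal axis), with the shape giving the replicate number and bars the mean and SD of 5 libraries. Cd34 lies at 166 to 239.7 CPM in HSC and 573 to 1378 CPM in MPP, and Procr at 62.5 to 132 CPM in Lepr+ and 19.2 to 56.7 CPM in Lepr- groups.

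Procr, the receptor through which activated protein C signals, was higher in Lepr+ than in Lepr- HSC and stood at a like level in Lepr+ HSC and Lepr+ MPP. Lepr+ HSC had 91.3, 119, 62.5, 90.6 and 132 CPM in replicates 1 to 5, and Lepr- HSC had 47.7, 29.3, 19.2, 34.4 and 23.8 CPM. Every Lepr+ HSC library exceeded every Lepr- HSC library, and within a replicate number the ratio ran from 1.91 to 5.55. The fitted log2 difference was 1.68 ± 0.26 (SE), a 3.21-fold higher level, with an adjusted p of 0.012 that ranked 4 of 16509 genes. Leaving out Lepr- HSC replicate 2, 3 or 5 or Lepr+ HSC replicate 5 moved the adjusted p to between 0.0509 and 0.0634, with log2 differences of 1.55 to 1.89 over all libraries left out in turn. Without the 3 least typical libraries the difference was 1.56 with an adjusted p of 0.0450.

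In MPP the libraries of Procr also kept apart by the receptor, but the test across all genes was not passed. Lepr+ MPP had 103, 67.4, 76.8, 100.3 and 121 CPM, and Lepr- MPP had 55.8, 38, 56.7, 35.6 and 44 CPM. All 5 Lepr+ MPP values lay above all 5 Lepr- MPP values, with ratios within a number of 1.35 to 2.81. The log2 difference was 1.03 ± 0.26 with an adjusted p of 0.136, while DESeq2 gave an adjusted p of 0.0112 within a range of 0.0112 to 1 over the alternatives. The Lepr difference in HSC minus that in MPP was 0.65 ± 0.36 log2 units (95% interval -0.05 to 1.36) and was not called. HSC over MPP came to 0.08 ± 0.25 among Lepr+ cells (adjusted p = 0.997) and -0.58 ± 0.25 among Lepr- cells (adjusted p = 0.345). In order of mean level, Lepr+ HSC (99.2 ± 27.3 CPM) and Lepr+ MPP (93.9 ± 21.7 CPM) were followed by Lepr- MPP (46 ± 9.84 CPM) and Lepr- HSC (30.9 ± 11 CPM; SD, n = 5 each), and neighbours in that order did not pass the test. Lepr+ HSC against Lepr- MPP passed with a log2 difference of 1.11 ± 0.26 and an adjusted p of 0.0349.

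The genes around EPCR gave no call beside it in HSC. Of 10 genes of the protein C and thrombin receptor pathway, 8 passed the filter, and 0 were called between Lepr+ and Lepr- HSC, where their median log2 difference was -0.45. F2rl2, the thrombin co-receptor PAR3, averaged 35.2 ± 16.5 CPM in Lepr+ HSC and 118 ± 42.1 in Lepr- HSC (adjusted p = 0.346). F2r, the thrombin receptor PAR1 through which EPCR-bound protein C acts, averaged 196 ± 85.9 CPM in Lepr+ HSC and 367 ± 92.3 in Lepr- HSC, with an adjusted p of 0.472 and of 0.00808 with the replicate block. In MPP 1 of the 8 was called: Tfpi, an inhibitor of the tissue factor pathway, rose in Lepr+ MPP to 102 ± 53.4 CPM, against 35.7 ± 3.94 CPM in Lepr- MPP, with an adjusted p of 0.0433 that became 0.0525 with the block. Between HSC and MPP among Lepr- cells F2rl2 (3.8 ± 0.61), Pros1 for the cofactor protein S (1.66 ± 0.31) and F2r (1.60 ± 0.34) rose in HSC on the log2 scale, with adjusted p of 0.00106, 0.00391 and 0.0096. Among Lepr+ cells F2rl2 was the 1 of the 8 called, at a log2 difference of 2.97 ± 0.59 (adjusted p = 0.0235), with 2 called under the block.

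Ly6a was lowest in Lepr- HSC. Lepr+ HSC had 250.2, 129, 143, 109 and 189 CPM in replicates 1 to 5, and Lepr- HSC had 119, 44.7, 40.7, 42.1 and 79.3 CPM. Lepr- HSC replicate 1, at 119 CPM, lay above Lepr+ HSC replicate 4, at 109 CPM, so the groups overlapped, yet all 5 replicate numbers were higher in Lepr+ HSC, by 2.1 to 3.51 times. The log2 difference of 1.33 ± 0.33 had an adjusted p of 0.129 in the fit by group. With the replicate block it was 1.39 ± 0.19 with an adjusted p of 0.00314, which made Ly6a the second member called in HSC, where 1.02% of all genes were called in that fit. The block gave the same 2 members when any 1 replicate number was left out, and DESeq2 without a block called them too (adjusted p = 0.0169 for Ly6a, within a range of 0.00268 to 1).

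Lepr+ MPP had 265, 140.2, 205, 248 and 336 CPM of Ly6a, and Lepr- MPP had 228, 126, 165, 100.5 and 167 CPM. The groups overlapped, although Lepr+ MPP was the higher in all 5 numbers, by 1.11 to 2.47 times. The log2 difference was 0.60 ± 0.32, with a 95% interval of -0.03 to 1.23, and was not called. Lepr- HSC fell below Lepr- MPP, with a log2 difference of -1.27 ± 0.33 and an adjusted p of 0.0378. Leaving out Lepr- HSC replicate 2, 3, 4 or 5 or Lepr- MPP replicate 1, 2, 3 or 5 raised that p to between 0.0556 and 0.130, and the log2 difference stayed between -1.61 and -1.10. Among Lepr+ cells HSC over MPP came to -0.54 ± 0.32 (adjusted p = 0.802). The order of means was Lepr+ MPP (239 ± 72.8 CPM), Lepr+ HSC (164 ± 56.4 CPM), Lepr- MPP (157 ± 48.5 CPM) and Lepr- HSC (65.2 ± 34.2 CPM), of which only the last pair of neighbours passed the test.

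**Figure D2:**
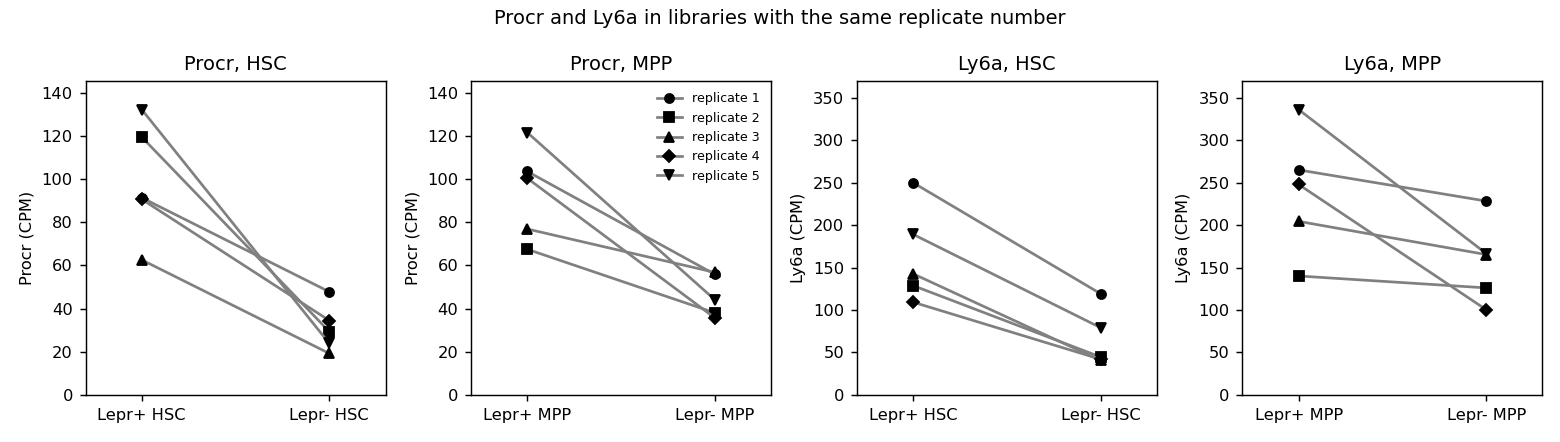
CPM of Procr and Ly6a (vertical axes) in Lepr+ and Lepr- libraries of HSC and of MPP, with a line joining libraries of the same replicate number. All 20 lines run higher at the Lepr+ end, and the smallest ratio, 1.11, belongs to Ly6a in MPP replicate 2.

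Ly6a lies in a cluster of near copies, and 19.0% of its 50-base windows recur in other genes, mostly in Ly6c1 and Ly6i. Reads of these windows could be lost from its count or added to it. Pairs aligned to more than 1 place were listed apart from the genes, at 7.27% to 15.2% of a library, and their part from Ly6a was not worked out. Of the other members, Cd9 shared 14.4% of its windows, mostly with Gm26728, Cd34 shared 2.14% and Eng 0.288%. Ly6c1 was at most 6.97 CPM and Ly6i at most 1.90 CPM in any library, against 40.7 to 336 CPM for Ly6a. Of 12 relatives of the Ly6 family, 7 passed the filter and 0 were called in any of the comparisons. Ly6e, which thymocytes and many blood cells carry, was the most abundant relative named by the rule, with 849 ± 128 CPM in Lepr+ HSC and 1092 ± 249.9 in Lepr+ MPP (adjusted p = 0.673). Gpihbp1, an endothelial lipase anchor, averaged 1.3 ± 1.46 CPM in Lepr+ HSC and 0.00737 ± 0.0165 in Lepr- HSC (adjusted p = 0.204), and 13.5 ± 15.4 CPM in Lepr+ MPP and 0.13 ± 0.29 in Lepr- MPP (adjusted p = 0.119).

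Kit, the receptor tyrosine kinase for stem cell factor, was not called between Lepr+ and Lepr- HSC or MPP. It stood at 529, 808, 956, 641 and 419 CPM in Lepr+ HSC and at 443, 764, 779, 368 and 454 CPM in Lepr- HSC. Lepr+ MPP had 833, 1219.7, 1262, 448 and 405 CPM, and Lepr- MPP had 786, 1109, 1013, 735 and 772 CPM. Replicates 2 and 3 were the highest in every group, and Lepr+ MPP replicates 4 and 5 lay below all the Lepr- MPP libraries. The Lepr+ over Lepr- log2 difference was 0.25 ± 0.32 in HSC (95% interval -0.37 to 0.88) and -0.08 ± 0.32 in MPP (-0.70 to 0.54). Without the 3 least typical libraries the value in MPP was 0.33. Among Lepr- cells Kit was lower in HSC than in MPP in all 5 numbers, at -0.65 ± 0.32 with an adjusted p of 0.42. With the block that p was 0.0186, which made 4 members called, where 7.5% of all genes were called. Left out of that fit, replicate 1 or replicate 2 took the p of Kit to 0.0819 or 0.0629 and the number of members called to 3. By mean level Lepr- MPP (883 ± 167 CPM) and Lepr+ MPP (834 ± 408 CPM) were followed by Lepr+ HSC (670.4 ± 215 CPM) and Lepr- HSC (562 ± 195 CPM), with no neighbours separated.

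Of 12 genes of Kit signalling, all passed the filter and 0 were called between Lepr+ and Lepr- HSC or MPP. The 2 with the smallest p in HSC were Lyn, a Src family kinase, with a log2 difference of -0.34 ± 0.17 (adjusted p = 0.747) and Sh2b3, an adaptor that restrains cytokine receptors, with one of 0.68 ± 0.39 (adjusted p = 0.865). In MPP Pdgfra, a related receptor that stromal cells carry, had the smallest p, with 4.15 ± 2.81 CPM in Lepr+ MPP and no read in any Lepr- MPP library (adjusted p = 0.145). Kitl, the ligand, averaged 5.09 ± 4.27 CPM in Lepr+ MPP and 0.0648 ± 0.0896 in Lepr- MPP (adjusted p = 0.362), and was at most 1.33 CPM in the HSC groups. Flt3, the related receptor of lymphoid-primed progenitors, fell in HSC to 16.4 ± 14 CPM among Lepr+ cells, against 256 ± 88 CPM in Lepr+ MPP (adjusted p = 0.0149). Among Lepr- cells it fell to 19.9 ± 12.7 CPM in HSC, against 474 ± 147 CPM in MPP (adjusted p = 0.00112). With the block 3 of the 12 were lower in Lepr- HSC.

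Eng had the group means closest to one another of the 7 genes, 358 ± 66.8 CPM in Lepr+ HSC, 351 ± 85.2 CPM in Lepr+ MPP, 297 ± 80 in Lepr- MPP and 289 ± 44.7 CPM in Lepr- HSC, and no pair of groups was called. Lepr+ HSC had 381, 323, 462, 288 and 336 CPM, and Lepr- HSC had 315, 261, 339, 227 and 304 CPM. Lepr+ MPP had 359, 422, 398, 205 and 370.0 CPM, and Lepr- MPP had 347, 329, 356, 161 and 291 CPM. All groups overlapped, and replicate 4 was the lowest library in each of them. Lepr+ was the higher in all 5 numbers of both cell types, by 1.11 to 1.36 times in HSC and 1.04 to 1.28 times in MPP. The log2 differences were 0.31 ± 0.22 in HSC (adjusted p = 0.971) and 0.24 ± 0.22 in MPP (adjusted p = 1). HSC over MPP came to 0.03 ± 0.22 among Lepr+ cells (95% interval -0.40 to 0.46) and -0.04 ± 0.22 among Lepr- cells (-0.47 to 0.39), both of which change sign under some alternatives.

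The endoglin complex was read in 18 genes, of which 17 passed the filter. Between Lepr+ and Lepr- HSC 0 were called in the fit by group. Tgfb1, a ligand of the family, averaged 18.5 ± 5.06 CPM in Lepr+ HSC and 48.9 ± 9.59 in Lepr- HSC, at a log2 difference of -1.40 ± 0.33 and an adjusted p of 0.109 by group and 0.00468 with the block. Id2, a target of BMP signals, had a log2 difference of 1.01 ± 0.43 (adjusted p = 0.61). In MPP 0 were called, with Id3 at 48.9 ± 49.9 CPM in Lepr+ MPP and 2.22 ± 1.57 in Lepr- MPP (adjusted p = 0.158) and Tgfbr3 at a log2 difference of 0.90 ± 0.29 (adjusted p = 0.421). Among Lepr- cells Tgfbr3, the co-receptor betaglycan, rose in HSC to 98.2 ± 35.4 CPM, against 22 ± 8.73 CPM in MPP (adjusted p = 0.000343). Tgfb1 rose likewise to 48.9 ± 9.59 CPM in Lepr- HSC, against 18.9 ± 7.35 in Lepr- MPP (adjusted p = 0.0237). Among Lepr+ cells 0 of the 17 were called in the fit by group, and Tgfbr3 had a log2 difference of 1.09 ± 0.29 (adjusted p = 0.13, and 0.00653 with the block).

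Cd34 gave the smallest p of all 16509 genes in HSC against MPP, both among Lepr+ and among Lepr- cells. Lepr+ HSC had 236, 232, 239.7, 203 and 166 CPM, and Lepr+ MPP had 829.3, 985, 896, 1009 and 573 CPM. Lepr- HSC had 209, 191, 191, 173 and 196 CPM, and Lepr- MPP had 1055, 1378, 1080.2, 1328 and 888 CPM. The highest HSC library, at 239.7 CPM, lay below the lowest MPP library, at 573 CPM. The gene fell in HSC, with a log2 difference of -1.99 ± 0.18 among Lepr+ cells, 0.251 times the MPP level, and of -2.58 ± 0.18 among Lepr- cells, 0.168 times. The adjusted p were 6.64e-06 and 1.02e-07. Among libraries of June alone the differences were -1.84 and -2.35, and among those of July alone -2.20 and -2.93. Only -2.35 passed the test in these smaller sets, and where Cd34 did not pass, 0 of all genes did.

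Cd34 was the steadiest member in HSC, with a coefficient of variation of 14.6% in Lepr+ HSC and 6.62% in Lepr- HSC. Lepr+ over Lepr- was 0.17 ± 0.17 in HSC (adjusted p = 1). In MPP the Lepr+ libraries were the lower in all 5 numbers, by ratios of 0.645 to 0.829, but the groups overlapped and the log2 difference of -0.42 ± 0.17 was not called (adjusted p = 0.80). The Lepr difference in HSC minus that in MPP was 0.58 ± 0.24 (unadjusted p = 0.0252) and was not called either. The mean order was Lepr- MPP (1146 ± 204 CPM), Lepr+ MPP (859 ± 175 CPM), Lepr+ HSC (215 ± 31.5 CPM) and Lepr- HSC (192 ± 12.7 CPM), and the step between Lepr+ MPP and Lepr+ HSC was the one between neighbours that passed.

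Esam, a junctional adhesion molecule of the immunoglobulin family, was not called in any of the comparisons. Lepr+ HSC had 205, 280.2, 215, 291 and 412 CPM, and Lepr- HSC had 178, 202, 174, 372 and 173 CPM. Lepr+ MPP had 178, 187, 190.2, 402 and 230.1 CPM, and Lepr- MPP had 122, 166, 136, 211 and 136 CPM. Replicate 4 was the highest library in 3 of the 4 groups, and in Lepr- HSC and Lepr+ MPP it stood well clear of the other 4. The Lepr+ over Lepr- log2 difference was 0.35 ± 0.27 in HSC (95% interval -0.18 to 0.88) and 0.62 ± 0.27 in MPP (0.09 to 1.16), where all 5 numbers were higher in Lepr+. HSC over MPP came to 0.24 ± 0.27 among Lepr+ cells and 0.51 ± 0.27 among Lepr- cells, the second again with all 5 numbers higher in HSC (adjusted p = 0.483). Of the alternatives run, that comparison passed in the block fit without the 3 least typical libraries, where 1977 of all genes were called. Its adjusted p there was 0.0149, within a range of 0.0149 to 0.992. By mean level the groups stood in the order Lepr+ HSC (281 ± 82.8 CPM), Lepr+ MPP (237 ± 94.2 CPM), Lepr- HSC (220.0 ± 85.9 CPM) and Lepr- MPP (154 ± 35.4 CPM), with no neighbours separated. Lepr+ HSC minus Lepr- MPP, the highest and the lowest, came to 0.86 ± 0.27 (adjusted p = 0.171, and 0.0104 with the block).

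Of 12 relatives of CD34 and ESAM all passed the filter, and 0 were called between Lepr+ and Lepr- HSC or MPP. Jam3, a junctional molecule of stem cells, had a log2 difference of 1.31 ± 0.46 in HSC (adjusted p = 0.442), and F11r, another of the family, one of 0.65 ± 0.32 in MPP (adjusted p = 1.0). Selplg, the P-selectin ligand, fell in Lepr- HSC to 156 ± 20 CPM, against 358 ± 85.1 CPM in Lepr- MPP (adjusted p = 0.00332). Of the 12, 2 were called in HSC against MPP among Lepr+ cells with the block and 1 by group.

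Cd9 ran opposite to Cd34, higher in HSC than in MPP. Lepr+ HSC had 158, 395, 219, 479 and 865 CPM, and Lepr+ MPP had 95.3, 129.7, 95.6, 318 and 239 CPM. Lepr- HSC had 258, 553, 353, 867 and 903 CPM, and Lepr- MPP had 86, 116, 87.2, 235 and 148 CPM. Among Lepr- cells the groups did not overlap, and the log2 difference was 2.13 ± 0.48 with an adjusted p of 0.0169. Without Lepr- MPP replicate 1, 2 or 3 or Lepr- HSC replicate 4 that p lay between 0.0517 and 0.0601, with log2 differences of 1.94 to 2.07.

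Among Lepr+ cells Cd9 overlapped between HSC and MPP, though each number was higher in HSC, by 1.51 to 3.61 times. The log2 difference was 1.27 ± 0.47 with an adjusted p of 0.381 by group. With the block it was called at 0.00306, as the second member beside Cd34, where 1.77% of all genes were called. Replicates 4 and 5 were the 2 highest Cd9 libraries in each of the 4 groups, and they are also the shallower ones. The SE of the 4 comparisons was 0.47 to 0.48 by group and 0.18 to 0.19 with the block. Lepr+ HSC was below Lepr- HSC in all 5 numbers, by ratios of 0.552 to 0.958, but the log2 difference of -0.47 ± 0.47 was not called in either fit. The mean order was Lepr- HSC (587 ± 293 CPM), Lepr+ HSC (423 ± 279 CPM), Lepr+ MPP (176 ± 99.1 CPM) and Lepr- MPP (135 ± 61.9 CPM), with no neighbours separated in the fit by group. Lepr+ HSC over Lepr- MPP came to 1.65 ± 0.48 (adjusted p = 0.118, and 0.000262 with the block). Lepr+ over Lepr- in MPP was 0.38 ± 0.47, and -0.33 without the 3 least typical libraries.

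**Figure D3:**
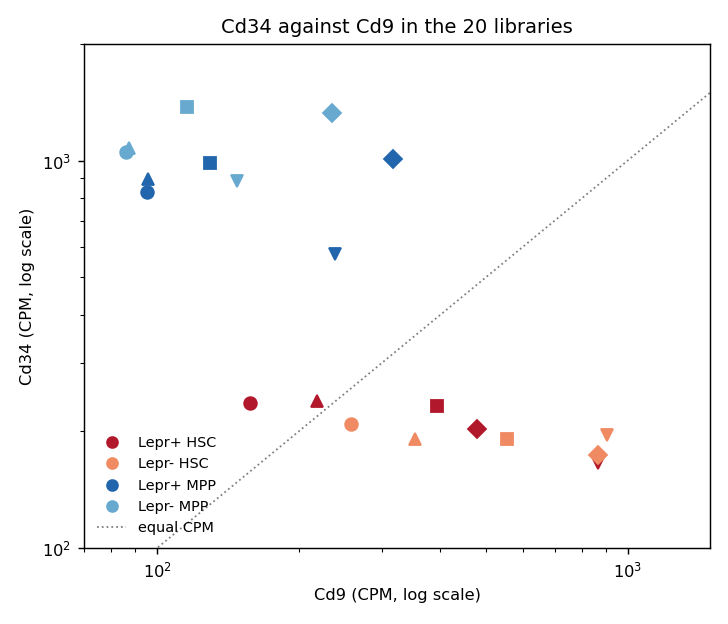
CPM of Cd34 (vertical, log scale) against CPM of Cd9 (horizontal, log scale) in the 20 libraries, coloured by group, with shapes for replicates as in the plot of CPM by group; the dotted line marks equal CPM. The 10 HSC libraries lie at Cd34 to Cd9 ratios of 0.192 to 1.5 and the 10 MPP libraries at 2.40 to 12.4.

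Set against each other, Cd34 and Cd9 separated the cell types in every library. Cd34 alone also did so, with at most 239.7 CPM in HSC and at least 573 in MPP, while Cd9 alone overlapped among Lepr+ cells. The ratio of Cd34 to Cd9 CPM was 0.192 to 1.5 in Lepr+ HSC (median 0.589) and 2.40 to 9.37 in Lepr+ MPP (median 7.6). It was 0.200 to 0.808 in Lepr- HSC (median 0.345) and 5.64 to 12.4 in Lepr- MPP (median 11.9). The libraries nearest to each other across the gap were Lepr+ HSC replicate 1 and Lepr+ MPP replicate 5. Procr over Cd34 combined the Lepr and the cell type difference, at 0.261 to 0.798 in Lepr+ HSC, 0.100 to 0.229 in Lepr- HSC, 0.0684 to 0.212 in Lepr+ MPP and 0.0268 to 0.0529 in Lepr- MPP. Because these ratios were formed after the genes' values had been seen, they are given without a test.

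Tetraspanins and their partners were read in 23 genes, of which 22 passed the filter and 0 were called between Lepr+ and Lepr- HSC or MPP. Cd82, a tetraspanin of quiescent stem cells, averaged 75 ± 23.2 CPM in Lepr+ HSC and 35.3 ± 11.1 in Lepr- HSC (adjusted p = 0.098). In MPP the smallest p belonged to Tspan12, at 7.75 ± 10.2 CPM in Lepr+ MPP and 0.103 ± 0.142 in Lepr- MPP (adjusted p = 0.0922), and Tspan7, at 17.6 ± 13.1 CPM in Lepr+ MPP and 0.218 ± 0.233 in Lepr- MPP (adjusted p = 0.104). Between HSC and MPP the called relatives went the other way from Cd9. Cd53, a leukocyte tetraspanin, fell to 18.7 ± 9.98 CPM in Lepr+ HSC, against 115 ± 52.1 in Lepr+ MPP (adjusted p = 0.0146), and to 10.1 ± 6.53 CPM in Lepr- HSC, against 145 ± 35.7 in Lepr- MPP (adjusted p = 0.000176). Cd82 (-1.66 ± 0.25) and Cd37 (-1.09 ± 0.20) fell on the log2 scale among Lepr- cells alone in these tests, with adjusted p of 0.000612 and 0.00391, and the interaction was not called for any of the 22.

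Of 23 other surface genes of stem and progenitor cells all passed the filter, with 0 called between Lepr+ and Lepr- cells by group and 1 with the block in each cell type. Itga2b, the platelet integrin CD41, averaged 272 ± 127 CPM in Lepr+ HSC and 705 ± 249.9 in Lepr- HSC, with an adjusted p of 0.191 by group and 0.0113 with the block. Cd27, a receptor of the TNF receptor family, had a log2 difference of 0.59 ± 0.20 in HSC (adjusted p = 0.42). Among Lepr- cells 6 were called between HSC and MPP, 3 in each direction. Itga2b (2.96 ± 0.39) and Itgb3, its partner (2.74 ± 0.44), rose in Lepr- HSC on the log2 scale with Slamf1, while Flt3 and Cd27 (-1.59 ± 0.21) fell with Cd48. Slamf1 and Cd48 encode antigens of the gate. Among Lepr+ cells Flt3 and Cd27 (-1.01 ± 0.21, adjusted p = 0.027) were called, both lower in HSC, and with the block 2 were higher and 2 lower.

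**Figure D4:**
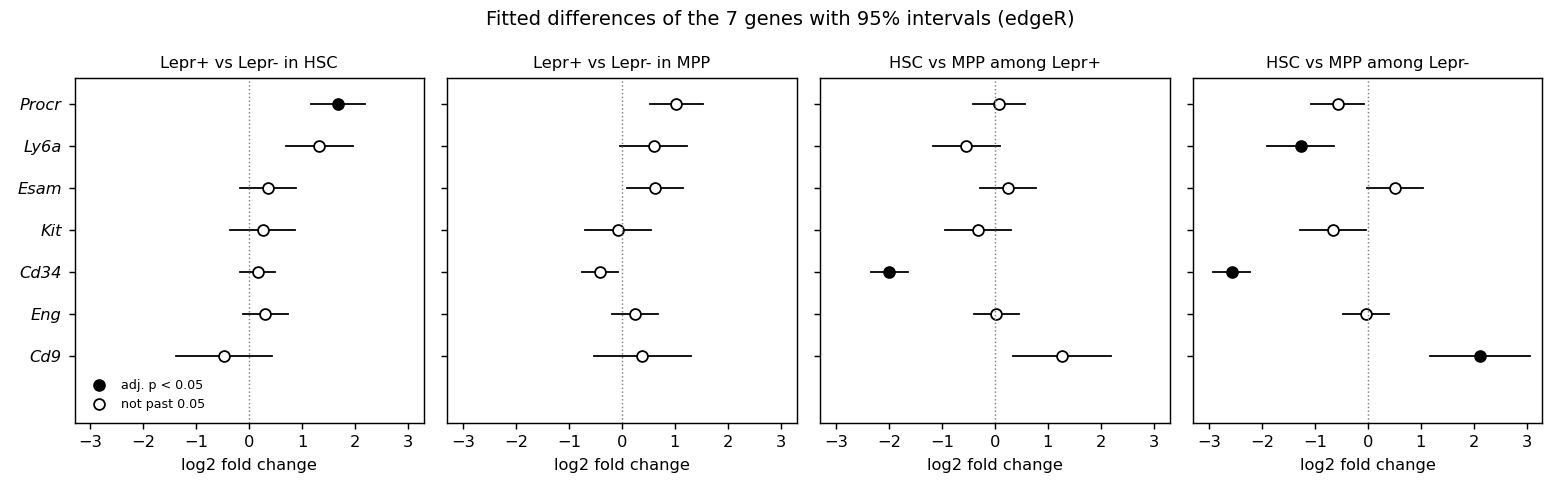
Fitted log2 differences (horizontal axis) of the 7 genes (rows) in the 4 comparisons (panels), from edgeR on 20 libraries, with 95% intervals by a normal approximation as lines. Filled circles have an adjusted p under 0.05. Positive values are higher in Lepr+ in the first pair of panels and higher in HSC in the other pair, where Cd34 lies at -1.99 and -2.58.

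Whether the Lepr difference was larger in HSC than in MPP was tested as an interaction over all genes, and 0 of 16509 genes, so 0 of the 7, passed in edgeR, with 529 genes at an unadjusted p under 0.05. DESeq2 called 19 genes in that test, of which 0 were members. The members' values ran from -0.86 ± 0.66 for Cd9 to 0.73 ± 0.45 for Ly6a.

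Per kilobase of annotated exon, Cd9 had the highest group mean of the members in HSC, and Procr was among the lowest. Cd9 ranked first in 5 of 5 Lepr- HSC libraries but in 3 of 5 Lepr+ HSC libraries. In Lepr+ HSC replicates 1 and 3 Ly6a stood above it, at 208 against 77.1 and 119 against 107 CPM per kb. Cd9 averaged 207 ± 136 CPM per kb in Lepr+ HSC and 287 ± 143 CPM per kb in Lepr- HSC. In Lepr+ MPP Ly6a was highest at 198 ± 60.4 CPM per kb, followed by Cd34 at 118 ± 24, and in Lepr- MPP Cd34 was highest at 157 ± 28 and Ly6a next at 131 ± 40.3 CPM per kb. Procr was lowest in Lepr- HSC (15.2 ± 5.43), Lepr+ MPP (46.2 ± 10.7) and Lepr- MPP (22.7 ± 4.84 CPM per kb), and in Lepr+ HSC it stood next above Cd34, at 48.8 ± 13.4 against 29.5 ± 4.31 CPM per kb. By the length of the longest transcript, Procr became the lowest in Lepr+ HSC too, and Cd34 the highest in Lepr+ MPP. Kit, which has the longest exons of the 7, stood at 63.1 to 99.1 CPM per kb in the group means.

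Within groups the members did not vary as 1 block. Deviations of log2 CPM from the group means over the 20 libraries correlated most for Esam with Cd9 (r = 0.79) and for Procr with Ly6a (r = 0.60). They ran opposite for Esam with Eng (r = -0.78) and Eng with Cd9 (r = -0.68). These are descriptions without a test, over libraries that share dates and much of their depth by number. The spread was widest for Cd9 in Lepr+ HSC, with a coefficient of variation of 65.9%, and reached 48.9% for Kit in Lepr+ MPP.

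Among 9229 genes with a mean of at least 10 CPM, the 3 whose log2 CPM followed each member most closely over the 20 libraries were found by Pearson's r, as a description. Procr was followed by H2-Eb1 (r = 0.893), an MHC class II chain, Ldhb (0.876), a lactate dehydrogenase subunit, and Vegfc (0.860), a lymphangiogenic growth factor. Ly6a was followed by Ctsh (0.921), a lysosomal protease, Hlf (0.914), a transcription factor of stem cells, and Il2rg (0.897), the common cytokine receptor chain. For Cd34 the first and second were Rgs2 (0.961), a regulator of G protein signals, and H2afy (0.924), a histone variant. For Cd9 they were Fkbp11 (0.963), Dnph1 (0.961) and Sdf2l1 (0.957), of which Fkbp11 and Sdf2l1 act in the endoplasmic reticulum. Esam was followed by Npdc1 (0.902), Nfkbia (0.899) and Rida (0.887), Kit by Erap1 (0.941), Ube3b (0.922) and Glud1 (0.900), and Eng by Eif4g3 (0.919), Zc3h13 (0.888) and Nkapd1 (0.883). After removal of the group means the r of Cd34 with H2afy was 0.21 and that of Procr with Vegfc 0.41, whereas that of Cd9 with Sdf2l1 was 0.97.

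Markers of other cells moved with the receptor, and their values stand here beside Procr and Ly6a. The 12 endothelial genes, with Procr and the other members left out, summed to 335 to 489 CPM in Lepr+ HSC and 229.8 to 295 in Lepr- HSC, and to 260.2 to 848 CPM in Lepr+ MPP and 180.3 to 236 in Lepr- MPP. Most of that sum in HSC was Tie1, a kinase that stem cells also hold, at a mean of 261 CPM in Lepr+ HSC and 204 in Lepr- HSC. Without it, a choice made after its level was seen, the other 11 summed to 107 to 189 CPM in Lepr+ HSC and 41.4 to 73.4 in Lepr- HSC, and to 99.4 to 686 CPM in Lepr+ MPP and 41.5 to 79.1 in Lepr- MPP. In HSC the highest of those 11 was Robo4, at a mean of 71.6 CPM in Lepr+ HSC and 24.3 in Lepr- HSC. It was also the highest in Lepr- MPP, at a mean of 50.1 CPM. Much of the sum of the 11 in these 3 groups was thus Robo4 alone, and the sums without it were not worked out. In Lepr+ MPP the highest was Fabp4, at a mean of 99.7 CPM. Of the full list of 12, Tie1 included, 11 passed the filter and were tested. Of these, 0 were called in HSC in the fit by group and 2 with the block, and 4 rose in Lepr+ MPP, 2 with the block, among them Fabp4 and Cdh5. Cdh5, VE-cadherin, averaged 13.8 ± 14.3 CPM in Lepr+ MPP and 0.0152 ± 0.0339 in Lepr- MPP. In Lepr+ HSC it had a median of 0 and a highest value of 2.12 CPM, and Sox17 was at 0 in every Lepr- library. The 12 stromal genes summed to 29.8 to 186 CPM in Lepr+ HSC and 15.7 to 206 in Lepr- HSC, and to 137 to 3272 CPM in Lepr+ MPP and 11.2 to 37.5 in Lepr- MPP, where 6 of 11 tested were called, 3 with the block. The 206 CPM came from Lepr- HSC replicate 3, and the other libraries of that group summed to 15.7 to 36.3 CPM. Between Lepr+ and Lepr- HSC 9 of the 11 stromal genes tested were higher in Lepr+. Their median log2 difference was 2.92, and 0 were called in either fit. The part of endothelial or stromal RNA in the differences of Procr, Ly6a and Tfpi was not tested.

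Megakaryocyte genes moved with Cd9. The 7 markers, led by Pf4 in Lepr- HSC, summed to 361 to 1596 CPM in Lepr+ HSC and 1661 to 4402 in Lepr- HSC, and to 81.3 to 297 CPM in Lepr+ MPP and 107 to 209.7 in Lepr- MPP. Of 5 tested, 3 rose in Lepr- HSC over Lepr- MPP and 1, Pf4, in Lepr+ HSC over Lepr+ MPP, where the block gave 4. The block also gave 2 lower in Lepr+ than in Lepr- HSC. Gp6 was at 0 in all Lepr- HSC and Lepr- MPP libraries, and Gp1bb in all Lepr+ MPP libraries. Their part in the difference of Cd9 was not tested. The 6 mast cell markers summed to 0.736 to 76.2 CPM and the 9 lineage antigens to 2.69 to 41.6 CPM over the 20 libraries.

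**Figure D5:**
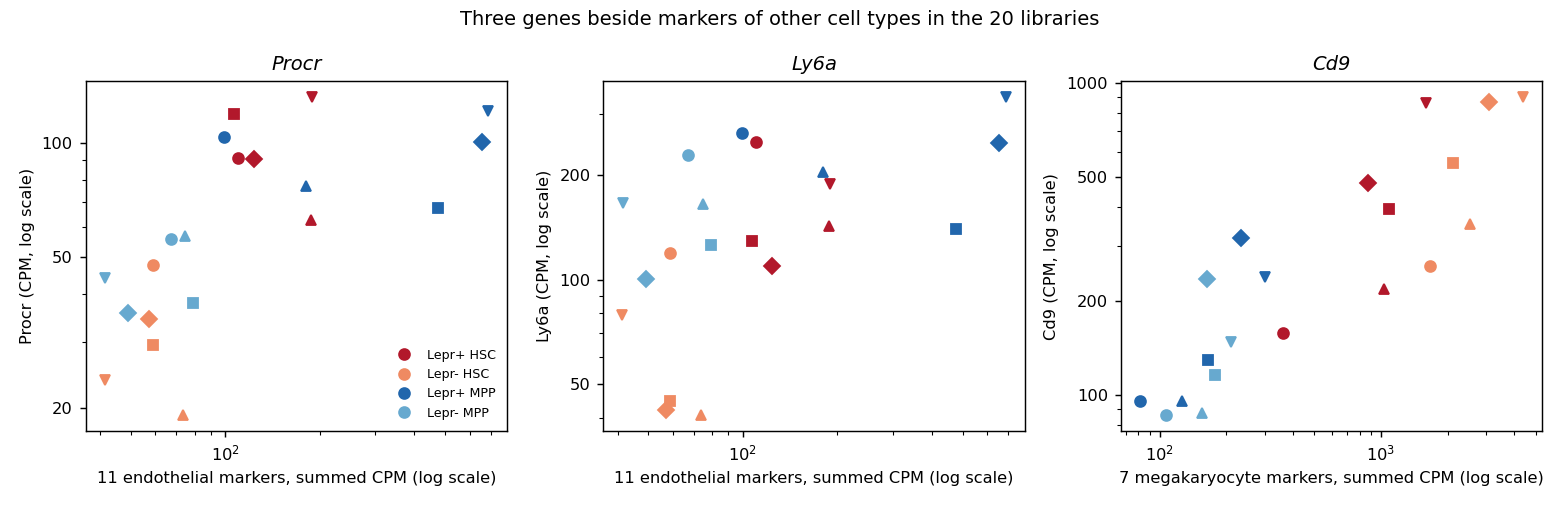
CPM of Procr and Ly6a (vertical, log scale) against the summed CPM of 11 endothelial markers (horizontal, log scale), and of Cd9 against that of 7 megakaryocyte markers, with 1 point per library, coloured by group and shaped by replicate as in the plot of CPM by group. Lepr+ HSC reach 62.5 to 132 CPM of Procr at endothelial sums of 107 to 189 CPM, and Lepr+ MPP 67.4 to 121 CPM at 99.4 to 686 CPM. Of the endothelial sum in Lepr+ HSC, Robo4 alone gave a mean of 71.6 CPM.

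The genes lie in GRCm38 at chr2:155751117-155755471 (Procr, ENSMUSG00000027611.12), chr15:74994877-74998031 (Ly6a, ENSMUSG00000075602.10), chr9:37528078-37538319 (Esam, ENSMUSG00000001946.14), chr5:75574916-75656722 (Kit, ENSMUSG00000005672.12), chr1:194938819-194961279 (Cd34, ENSMUSG00000016494.9), chr2:32646595-32682669 (Eng, ENSMUSG00000026814.16) and chr6:125460266-125494791 (Cd9, ENSMUSG00000030342.8). Ly6a and Cd9 are on the minus strand and the others on the plus strand. Because the libraries kept no strand, reads of overlapping exons cannot be assigned between Cd34 and its antisense gene Gm16897 (0 to 7.00 CPM), Eng and Fpgs (30.3 to 71.8 CPM), or Cd9 and Gm26728 (0 to 2.77 CPM).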

How the data were processed

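The authors deposited 1 table of raw read-pair counts per gene for each of the 20 libraries, with 5 closing lines that name no gene, whose 21.4% to 38.7% of read pairs were left out. cDNA came from a SMART-Seq v4 kit and libraries from Nextera XT, non-stranded, per the labels' protocols. The submitters' processing notes name the build GRCm38 with HTSeq 0.11.2, STAR 2.7.1a, cutadapt 2.1, FastQC 0.11.8 and DESeq2. The counting options were not given in the sources used here. GENCODE M21 matched 55480 of 55573 gene identifiers, 55180 of them with their version.

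Differences were tested with edgeR 4.0.16 quasi-likelihood F tests (R 4.3.3) on all 20 libraries with group as the only term, TMM factors, and filterByExpr (counts of 10, totals of 15). P-values are two-sided and adjusted by Benjamini-Hochberg over 16509 genes, with a threshold of 0.05, and the biological coefficient of variation was 0.747. CPM carry the SD over 5 libraries, and log2 differences carry an SE derived from the test. It is the size of the log2 difference divided by the square root of its F statistic. A run on simulated counts changed 200 genes by 2 log2 units, with less spread than in these libraries and no date effect. It does not show how the fit behaves on differences as small as most of those here. Alternatives were DESeq2 1.42.0, limma 3.58.1 (voom), other size factors, no filter, only the groups compared, a replicate block, libraries of June or July alone by the dates in the deposited names (3 and 2 replicates), and leaving out libraries.

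Each replicate number carried 1 date, its own, in all 4 groups by the deposited names, so numbers pair the libraries by date. Whether the groups of a number came from the same mice was not worked out. Deviations from group means correlated at a median of 0.264 (-0.065 to 0.562) over 30 same-number pairs and -0.086 over 120 others. Libraries within a group differed well beyond counting noise, so none was merged. Libraries of a group differ in their pool of 2 mice, in date and in depth, and p-values of the fit by group measure these together. With the block they measure the spread left once differences between numbers are taken out.

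All 7 members are named. From each list of relatives up to 4 genes past the threshold by smallest p were named, or else up to 2 with values only. Others (Ly6c1, Ly6i, Lepr, Slamf1 levels, Cdh5 and Robo4) were chosen after their values were seen. A few genes that the rule names are not reported here. The members and lists were chosen with earlier results of these data known.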

Additional observations from a re-analysis of the deposited data

Results flagged for a closer look

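In 3 of the 28 sets of 5 libraries (7 genes in 4 groups), 1 library stood apart from the other 4 by Dixon's ratio of gap to range, for which the 95% critical value is 0.71. Chance alone gives about 1 in 20. Esam had 372 CPM in Lepr- HSC replicate 4, against 173 to 202 CPM in the others (ratio 0.854). Esam also had 402 CPM in Lepr+ MPP replicate 4, against 178 to 230.1 CPM in the others (ratio 0.768). Eng had 205 CPM in Lepr+ MPP replicate 4, against 359 to 422 CPM in the others (ratio 0.712). All 3 values belong to replicate 4, 1 of the 2 numbers with the lower depth, and what part depth had in them was not tested.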

How the results depend on the processing

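The number of the 7 genes called between Lepr+ and Lepr- HSC was 1 in the fit by group, 2 with DESeq2 and 2 with the replicate block. With the block and setting aside the 3 least typical libraries it was 2, where 143 of all genes were called. It was 0 with only the groups compared or with June or July libraries alone, where 0 of all genes were called. Leaving out 1 library gave 0 to 2, with 0 to 24 of all genes called. Leaving out 1 number with the block gave 2, with 23 to 88 of all genes called. In MPP the number of members called was 0, and 1 with DESeq2. Between HSC and MPP it was 1 among Lepr+ cells, and 2 with the block. With the block and without the 3 libraries or any 1 number it was 2, with 65 to 206 of all genes called. With June or July libraries alone it was 0, where 0 of all genes were called. Among Lepr- cells it was 3, and 4 with the block. June alone gave 1, with 81 of all genes called, and July alone gave 0, with 0 of all genes called. The block without the 3 libraries gave 5, with 1977 of all genes called. The block gave 3 or 4 when 1 number was left out, with 541 to 1120 of all genes called. Leaving out 1 library gave 1 to 3, with 301 to 556 of all genes called. The block changed no other call of a member than those of Ly6a, Cd9, Kit and Esam given above, although it moved the count over all genes to 169 against 17 between Lepr+ and Lepr- HSC, 17 against 33 in MPP, 293 against 77 and 1238 against 451 between HSC and MPP. DESeq2 called 181, 213, 343 and 844 genes in the same order.

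Log2 differences that changed sign were all uncalled. For Kit between Lepr+ and Lepr- MPP they were 0.327 without the 3 least typical libraries, 0.150 so with the block, and -0.282 to 0.0917 when 1 library was left out. For Cd9 there it was -0.327 without the 3 libraries. For HSC over MPP among Lepr+ cells, Procr was at -0.0634 in June and -0.0455 to 0.206 when 1 library was left out, and at -0.107 with the block without replicate 2. Esam was at -0.0492 in July. Eng was at -0.0430 in July, -0.117 without the 3 libraries, -0.0688 with the block without replicate 4, and -0.115 to 0.103 when 1 library was left out. Among Lepr- cells Eng was at -0.196 to 0.0359 when 1 library was left out, and with the block at 0.0229, 0.0820 and 0.00256 without replicates 1, 2 and 3. In the interaction Esam was at 0.0871 in June, 0.0834 with the block without replicate 4, and -0.450 to 0.00209 when 1 library was left out. Eng was there at -0.00420 in July, -0.0755 without the 3 libraries, and -0.0752 to 0.224 when 1 library was left out. The cause was not tested. Of the single-gene values under alternatives, 1137 kept direction and side of the threshold, 33 changed sign, 27 lost and 23 gained the call, and 13 values without a test moved. Spearman's rho in place of Pearson's r kept 0 to 2 of the 3 genes most like each member. June alone leaves 3 and July 2 libraries a group, and intervals cover the spread between libraries only.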
